A study of Mus musculus with 27 samples.

Results

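The step from day 4 to day 6 of differentiation was described in cells of the skull vault (calvaria) of neonatal mice, using 6 of the 27 RNA sequencing profiles of the series, those labelled day 4 and those labelled day 6. Both groups came from the strain C57BL/6J-Col3.6 CFP, in which a fragment of a collagen type I promoter drives cyan fluorescent protein in cells of the osteoblast lineage. The calvariae were taken from mice 5 to 9 days old, the released cells were grown for 4 days, and fluorescent cells were sorted and put into medium with ascorbic acid and β-glycerol phosphate, in which both groups stayed until harvest. The labels of the groups differ only in the time, 4 or 6 days, and the number of mice pooled is not given in the sources used here. The 3 profiles of a day carried 1 barcode and came from different sequencing lanes, so each day is 1 library, the spread between its profiles is technical, and no p-value for the difference between the days can be given. With 1 library a day, the day cannot be told apart from its culture, harvest and library preparation. The members of the comparison were the 14085 of 37991 genes with at least 30 counts summed over the 6 profiles.

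The profiles held 13804483 to 14248738 estimated counts each on day 4 and 14073051 to 14544756 on day 6. Each difference below is the log2 ratio of the summed counts of day 6 to those of day 4 after scaling by the upper quartile, with 0.5 counts added, and a gene was called higher or lower at 1.5-fold or more. By this rule 1376 genes (9.77%) rose and 623 genes (4.42%) fell, and the median over all genes was 0.014. The counts of calls in each list below are to be read beside these shares. At 2-fold or more the shares were 4.38% higher and 1.53% lower. Among the 10560 genes with at least 300 counts, 4.55% rose and 1.7% fell by 1.5-fold, and 1.66% and 0.36% by 2-fold, so the calls were more frequent among genes with few counts. The interval given after a log2 ratio is a 95% Clopper-Pearson interval for counting error only, and had a median width of 0.245 over genes with at least 300 counts and of 1.26 over the others. Levels are in TPM, the share of a gene's transcripts among all transcripts of a profile with length taken into account, after scaling to the upper quartile. Estimated counts that are not whole numbers hold reads that RSEM divided among genes, and such counts are called shared below. The interval does not cover the division of these reads.

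The labels name the cells osteoblasts. Sparc, a matrix glycoprotein that binds calcium, Col1a1, the main chain of bone collagen, Spp1 (osteopontin) and Runx2, the transcription factor required for the lineage, were at 9818, 2237, 979 and 42.0 TPM on day 4. The markers of the late, mineralizing stage were nearly absent. Ibsp (bone sialoprotein) had 5 counts on day 4 and 9 on day 6, Bglap (osteocalcin) had 1 and 2.38, and both fell under the count minimum. Genes of the collagen matrix were thus high on both days and these late markers near the detection limit.

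Osteoblasts differentiate from mesenchymal progenitors by first laying down a collagen matrix and later mineralizing it, and Wnt and BMP signals favour this course. Type I interferons are secreted proteins that act through the receptor chains Ifnar1 and Ifnar2. The kinases Jak1 and Tyk2 then activate Stat2 and its partners, which join Irf9 and bind promoter elements built on repeats of GAAA, and the genes switched on in this way limit viral replication. In bone, interferon beta is known for restraining osteoclast formation.

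Interferon-stimulated genes led the list of rises, and promoters of some of them are shown. The motif GAAANNGAAA, the core of the element described above, was searched on both strands. Of the genes with a match, Isg15, Ifit1, Ifit3 and Bst2 are shown. Other genes of the list had none, among them Oasl2, with a log2 rise of 2.67. The sequences are the 250 bases before the annotated start site, 5′ to 3′ along the gene, from RefSeq in build GRCm38.p6, with matches in capitals. On the opposite strand the motif reads TTTCNNTTTC, and matches that overlap each other form 1 longer run of capitals. The stretch of Isg15 lies at chr4:156200819-156201068, minus strand, with 3 matches of which the first starts 78 bases and the last 66 bases before the start site. The stretch of Ifit1 lies at chr19:34640639-34640888, plus strand (matches at 104 and 85 bases), that of Ifit3 at chr19:34583279-34583528, plus strand (156 and 122 bases) and that of Bst2 at chr8:71537473-71537722, minus strand (130 and 124 bases).
Isg15: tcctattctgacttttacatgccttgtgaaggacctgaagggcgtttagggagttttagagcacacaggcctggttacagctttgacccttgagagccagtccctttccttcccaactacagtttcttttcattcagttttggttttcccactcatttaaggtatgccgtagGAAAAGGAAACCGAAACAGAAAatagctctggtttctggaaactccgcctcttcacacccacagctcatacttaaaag
Ifit1: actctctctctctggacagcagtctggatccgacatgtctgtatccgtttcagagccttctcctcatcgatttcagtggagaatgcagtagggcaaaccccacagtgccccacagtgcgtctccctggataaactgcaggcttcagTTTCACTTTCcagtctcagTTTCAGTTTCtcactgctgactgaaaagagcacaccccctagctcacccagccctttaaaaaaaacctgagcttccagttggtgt
Ifit3: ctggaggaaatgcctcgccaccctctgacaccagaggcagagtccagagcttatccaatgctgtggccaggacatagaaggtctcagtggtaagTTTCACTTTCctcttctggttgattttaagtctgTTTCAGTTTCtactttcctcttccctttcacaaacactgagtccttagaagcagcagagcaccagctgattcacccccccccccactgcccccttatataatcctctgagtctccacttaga
Bst2: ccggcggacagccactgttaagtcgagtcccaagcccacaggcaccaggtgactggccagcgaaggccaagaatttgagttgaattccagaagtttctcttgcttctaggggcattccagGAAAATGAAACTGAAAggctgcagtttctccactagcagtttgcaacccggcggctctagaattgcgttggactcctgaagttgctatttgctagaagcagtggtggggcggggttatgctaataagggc

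Of the 34 genes in the list of interferon-stimulated genes, 24 were found in the promoter table, and 14 of them (58.3%) had the motif within the 300 bases around a start site. Among interferon-induced GTPases it was 10 of 11 (90.9%). Interferon ligand genes, none of which had enough counts to be compared, held it in 11 of 20 (55%), so the motif was not limited to genes that rose. Of all 27025 genes in the table, 1079 (3.99%) had it, and per promoter the share was 3.44% of 32851. Sequence matches are letters in a window and do not show binding. The 10 without a match included Irf1, which was not called, and Ifi44, Irf7, Irf9 and Oasl2, which rose.

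Interferon-stimulated genes rose with a single exception. Of 34 listed genes, all of which passed the count minimum, 33 rose and none fell, against 9.77% of all genes tested, and the median log2 ratio was 2.18. At 2-fold or more, 29 of 34 rose. Their summed level went from 2851 to 2936 TPM in the day 4 profiles to 5875 to 5979 TPM in the day 6 profiles. Of the 15 largest rises among genes with at least 10 TPM, 6 were in this list and 10 in this list or the related interferon lists. Of the 50 largest it was 15 and 26. Of the related lists, those of interferon-induced GTPases, of sensors and of receptors were added after the values had been seen. The 10 and the 26 are therefore not separate evidence.

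Ifitm3, a membrane protein that blocks virus entry, was already at 2453 TPM on day 4 and rose 1.67-fold to 4133 TPM. Bst2 (tetherin), which holds budding virus at the cell surface, had 47.3, 46.1 and 45.8 TPM on day 4 and 276, 270.2 and 276 TPM on day 6, a log2 rise of 2.55 (interval 2.43 to 2.67). Isg15 encodes a small protein that is attached to others like ubiquitin. In the files' build NCBIM37 it lies on chromosome 4, 155573533 to 155574927, minus strand. Its levels were 35.9, 31.1 and 37.5 TPM on day 4 and 204, 210.4 and 220.2 TPM on day 6, a log2 rise of 2.59 (interval 2.45 to 2.73). Every day 6 profile of both genes lay above every day 4 profile by more than the profiles of a day differed. The per-lane log2 ratios spanned 2.52 to 2.56 for Bst2 and 2.48 to 2.75 for Isg15.

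Oasl2, a relative of the oligoadenylate synthetases, had 24.8, 25.8 and 26.4 TPM on day 4 and 175, 198 and 193 TPM on day 6 and rose 6.37-fold. Ifit1 and Ifit3 encode proteins that bind foreign RNA at its end. Ifit1 had 30.4, 30.7 and 31.2 TPM on day 4 and 143, 151 and 149 TPM on day 6, and Ifit3 had 13.1, 10.99 and 11.2 TPM on day 4 and 73.4, 78.5 and 76.2 TPM on day 6. The log2 rises were 2.25 for Ifit1 and 2.68 for Ifit3, and in both genes the days were clear of each other in all profiles. The counts of Ifit1 and Ifit3, which have close copies beside them, are shared. Rtp4 had 9.87, 9.09 and 10.7 TPM on day 4 and 57.6, 59.4 and 58.7 TPM on day 6 (log2 2.55, interval 2.39 to 2.72). On the log2 scale Ifi44 rose by 2.37, Trim30a by 2.30 and Zbp1, a sensor of Z-form nucleic acid, by 2.20. Further genes among the 15 largest rises were Ifi203, a member of the family of DNA-binding HIN-200 proteins, from 1.93 to 11.7 TPM, and I830012O16Rik, D14Ertd668e and Gm4951, which are known by clone or model names, with log2 rises of 2.59, 2.51 and 3.10.

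Genes of the list near the detection limit on day 4 had large ratios and wide intervals. Ifi27l2a went from 4 to 145 counts, a log2 ratio of 4.95 with an interval of 3.72 to 7.01. It overlaps Ifi27l2b on the same strand, and its counts are shared. Mx1, a GTPase that traps viral capsids, went from 9 to 143 counts (log2 3.85, interval 2.96 to 5.08) and Oas2, which makes the oligoadenylates that activate RNase L, from 37 to 400 (log2 3.35, interval 2.88 to 3.89). At the other end, Irf1 was the exception in the list, with 6.98, 7.73 and 6.09 TPM on day 4 and 6.80, 7.76 and 7.28 TPM on day 6 and a log2 ratio of 0.089 (interval -0.12 to 0.30).

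**Figure D1:**
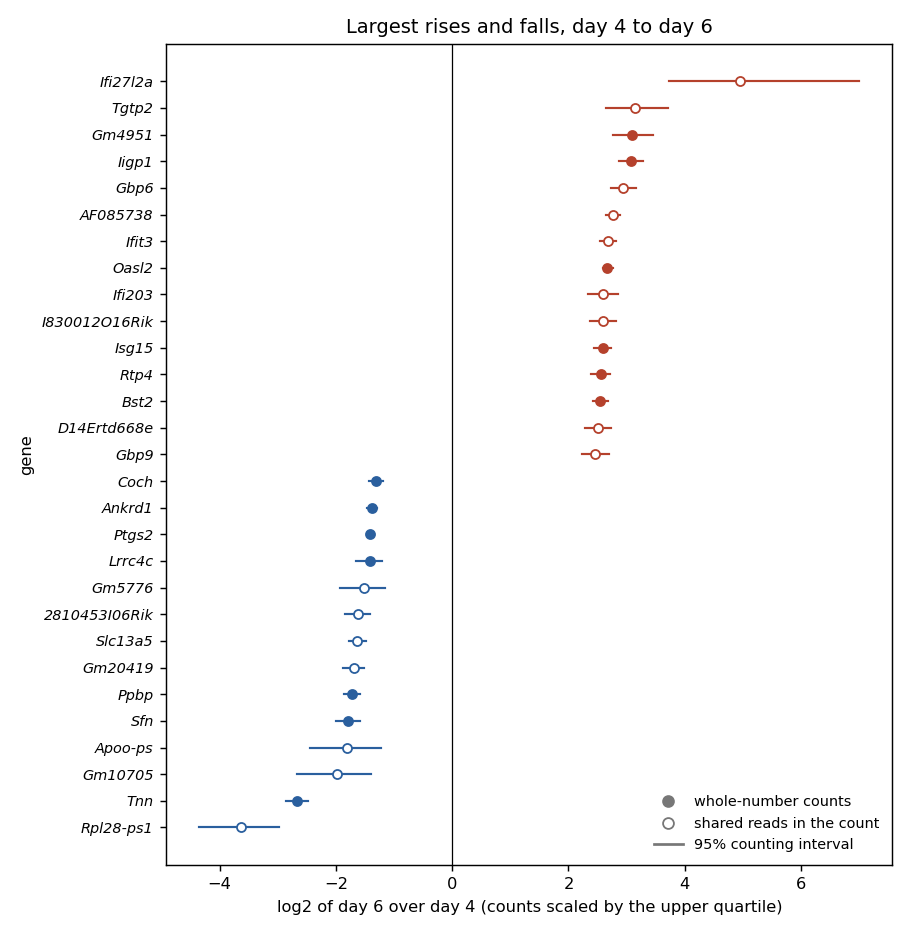
Genes with a symbol and at least 10 TPM on day 4 or day 6, the 15 that rose most and 14 of the 15 that fell most; the horizontal axis is the log2 ratio of day 6 to day 4, points are summed libraries, lines are 95% counting intervals, and open points are genes with shared counts. The rises run from 2.46 (Gbp9) to 4.95 (Ifi27l2a) and the falls from -1.31 (Coch) to -3.63 (Rpl28-ps1). The counting intervals of the 29 genes shown are clear of 0. For open points they can be too narrow: per-lane log2 ratios spanned 1.37 to 11.79 for AF085738 and -2.63 to 0.69 for Gm5776.

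The ligands were not seen. None of the 21 interferon genes looked up passed the count minimum, and 18 of them had 0 counts in all 6 profiles, among them Ifnb1, Ifng, Ifne and Ifnk. The others were Ifna13 and Ifnab with 3 counts each on day 4 and Ifnz with 4.34, and all of these had 0 on day 6. A count of 0 in a day's library allows up to 3 counts, which is 0.0709 CPM (counts per 1000000 counts) on day 4 and 0.0695 CPM on day 6. Over the other days of the series Ifnb1 was listed above 0 on day 8 alone, at 0.101 TPM.

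The receptor chains Ifnar1 and Ifnar2 and the kinases Jak1 and Tyk2 were present, with differences under 1.5-fold in counts. Ifnar1 was at 25.6 TPM on day 4 and 27.3 TPM on day 6 (log2 0.029, interval -0.053 to 0.11), and Ifnar2 at 74.8 and 82.4 TPM (log2 0.0061). Jak1 (log2 -0.12) and Tyk2 (log2 0.23) did not reach the 1.5-fold call, and neither did Irf3 (log2 0.04), a factor that switches on interferon genes. Ifngr1, a chain of the receptor for interferon gamma, had 36.2, 31.7 and 27.8 TPM on day 4 and 18.1, 16.2 and 19.01 TPM on day 6, a log2 ratio of -0.45 in counts that did not reach the call but of -0.84 in TPM, past 1.5-fold.

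The transcription factors Stat2, Irf7 and Irf9 rose. Stat2 had 19.5, 19.5 and 19.2 TPM on day 4 and 48.3, 49.6 and 49.5 TPM on day 6 (log2 1.33, interval 1.26 to 1.40), and Irf9 went from 18.6 to 43.3 TPM (log2 1.18). Irf7, which amplifies interferon production once it is made, had 8.14, 7.03 and 8.09 TPM on day 4 and 27.9, 24.1 and 31.4 TPM on day 6 (log2 2.16, interval 1.96 to 2.37). Of the 18 receptors, kinases and factors with enough counts, 5 rose, against 9.77% of all genes, and none fell. The list was added after values were seen, and its median log2 ratio was 0.038. Rises such as those of Stat2 and Irf7 were already counted among the interferon-stimulated genes, so they are not separate evidence. Another of the rises was Il28ra, a receptor chain for interferon lambda, which had 10 and 23 counts (log2 1.10).

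Some of the sensors and brakes of the response rose. Of 17 nucleic acid sensors and negative regulators with enough counts, 11 rose (9.77% of all genes did), none fell and 6 were not called, with a median log2 ratio of 0.89. The list was added after values were seen, and members such as Usp18, Ddx58 and Ifih1 were already counted among the interferon-stimulated genes. Usp18, which removes Isg15 from proteins and blocks the receptor, had 6.60, 7.03 and 7.37 TPM on day 4 and 35.0, 37.1 and 39.3 TPM on day 6 (log2 2.39, interval 2.21 to 2.58). The RNA sensors Dhx58 (Lgp2), Ifih1 (Mda5) and Ddx58 (Rig-I) rose by 2.04, 1.42 and 0.77 on the log2 scale, the endosomal RNA receptor Tlr3 by 0.89 and the DNase Trex1 by 0.97. The DNA sensor Mb21d1 (cGAS) had a log2 ratio of 0.42, and Tmem173 (STING) and Mavs, the adaptors of DNA and RNA sensing, had 0.21 and 0.19, none of them called, nor was Samhd1, which breaks down deoxynucleotides (log2 0.22). Tlr7, another endosomal RNA receptor, had a log2 ratio of 1.01 in counts and of -0.049 in TPM. Socs1, which restrains Jak kinases, had a log2 ratio of -0.48 from 72 and 54 counts (interval -1.02 to 0.045), and its relative Socs3 had a log2 ratio of -0.20.

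All 18 interferon-induced GTPases with enough counts rose by 2-fold or more, where 4.38% of all genes did, with a median log2 ratio of 1.88. Some, among them Gbp2, Gbp3 and Mx1, are also in the list of interferon-stimulated genes, so the lists are not separate evidence. Many of the listed proteins attack the vacuoles of intracellular microbes, and mice have many more such proteins than humans do. Iigp1 had 2.62, 2.65 and 3.10 TPM on day 4 and 23.5, 23.4 and 22.5 TPM on day 6 (log2 3.07, interval 2.87 to 3.29). Gbp6 rose from 1.78 to 13.8 TPM (log2 2.94), Tgtp2 from 2.04 to 13.2 TPM (log2 3.15), and Igtp from 11.9 to 43.0 TPM (log2 1.80). This list was added after the values had been seen. The genes arose as near-identical copies, and the counts of Gbp6, Tgtp2 and Igtp are shared, so single members are less certain than their summed level, which went from at most 105.9 TPM in a day 4 profile to at least 327 TPM in a day 6 profile. Gvin1 was the least certain by its spread between lanes. Its TPM were 0 in 1 profile of each day, and its log2 ratio of 1.24 became -0.57 without the profiles of replicate 2.

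**Figure D2:**
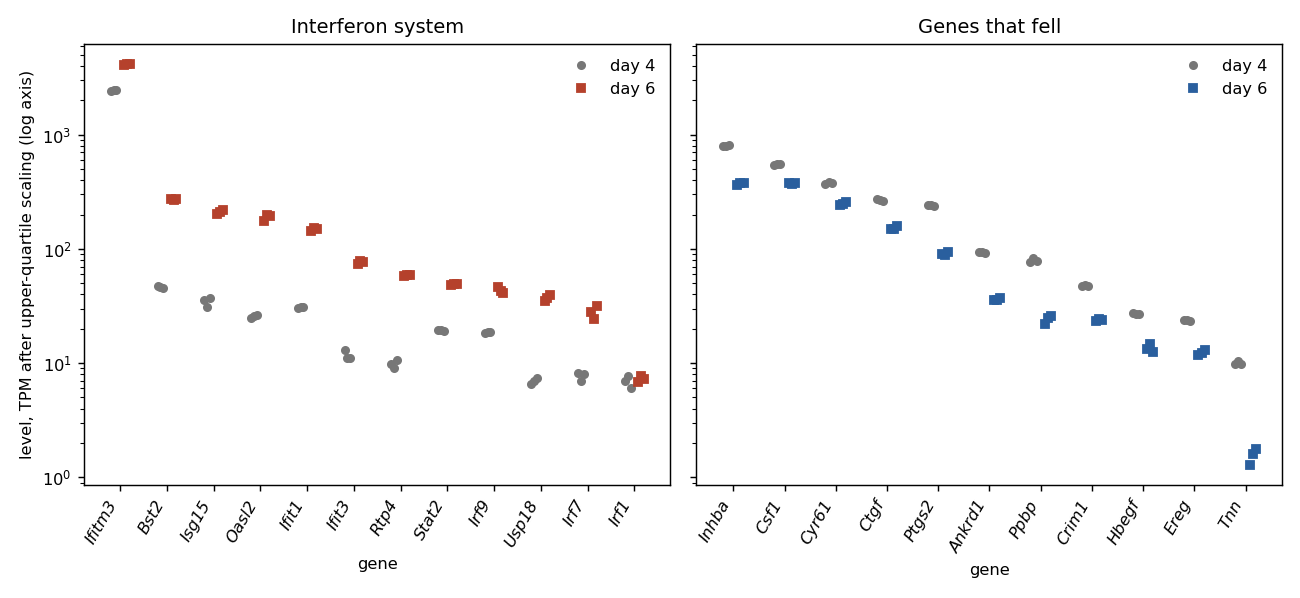
Level in TPM (log axis) of 12 genes of the interferon system and 11 genes that fell, in each of the 3 profiles of day 4 (circles) and day 6 (squares). For 11 genes on the left the squares lie above the circles, from 1.67-fold for Ifitm3 to 6.40-fold for Ifit3 in summed counts, and for Irf1 they mix; on the right all squares lie below the circles, from 1.52-fold for Csf1 to 6.34-fold for Tnn.

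The rise from day 4 to day 6 was a stretch of a longer course. On days 2, 4, 6, 8 and 10, Isg15 stood at 4.97, 34.8, 211, 306 and 69.8 TPM, and Bst2 at 10.97, 46.4, 274, 395 and 156 TPM. The median log2 change of the list was 2.18 from day 2 to day 4, 2.18 from day 4 to day 6, 0.55 from day 6 to day 8 and -1.17 from day 8 to day 10. Neighbouring steps share a library, so a deviation of the day 4 or day 6 library would enter both of its steps.

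Genes of antigen presentation by MHC class I rose in this step too. On days 6, 8, 10 and 18 their summed level was 2534, 3952, 4321 and 4097 TPM. Of 16 listed genes 14 rose, against 9.77% of all genes, and none fell, with a median log2 ratio of 1.07. The class I heavy chains H2-K1 and H2-D1 rose from 51.6 to 116 TPM (log2 1.17) and from 43.5 to 86.2 TPM (log2 0.97). B2m, the shared light chain, had 1039, 1029 and 1052 TPM on day 4 and 1818, 1840 and 1840 TPM on day 6 (log2 0.80). Psmb8, Psmb9 and Psmb10, the subunits that replace their constitutive counterparts in the immunoproteasome, rose by 2.06, 2.37 and 1.17 on the log2 scale. None of the 31 subunits in the list of the standard proteasome was called, and their median log2 ratio was -0.054. Nlrc5, the class I transactivator, rose from 74 to 166 counts. H2-K1 and H2-D1 are close copies of each other with shared counts.

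Of 12 complement genes with enough counts 7 rose, against 9.77% of all genes, and none fell, with a median log2 ratio of 0.71. Over the alternatives 3 to 8 rose and the median ran from 0.32, with only genes of whole-number counts, to 0.78. Serping1, the inhibitor of C1, had 33.0, 35.4 and 36.6 TPM on day 4 and 59.0, 58.5 and 63.9 TPM on day 6 (log2 0.77, interval 0.67 to 0.87), and C1ra, a protease of the C1 complex, rose from 7.17 to 12.9 TPM (log2 0.83). C4b and Cfb rose by 1.96 and 1.72 on the log2 scale but were below 3 TPM on both days. C3, the central component, had 47 and 94 counts (log2 0.92), a call that ended in TPM at 0.41 and without the profiles of replicate 1 at 0.56. On day 18 C3 was at 67.7 TPM and Serping1 at 757 TPM.

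Many markers of monocytes and macrophages rose in this step too. On days 6, 8, 10 and 18 the summed level of the markers was 76.85, 82.57, 231.3 and 2626 TPM. That of the interferon-stimulated genes was 5926, 6392, 3437 and 2087 TPM, and Ifitm3 alone held 4133 TPM of it on day 6. Of 19 listed markers, 14 had enough counts and none was at 0 counts. Of these 14, 10 rose and 1 fell, against 9.77% and 4.42% of all genes. Their summed level went from 38.1 to 43.2 TPM over the day 4 profiles to 72.9 to 79.0 TPM over the day 6 profiles, most of it Lyz2 (31.6 and 56.0 TPM). Laptm5 rose from 9 to 69 counts, C1qb from 7 to 42 and Mpeg1 from 16 to 77. The defining receptors were not called higher. Csf1r had a log2 ratio of -0.031, Emr1 (F4/80) of 0.19 and Itgam (CD11b) of 0.051, and Ptprc (CD45) had 10 and 12 counts. Cd14, a coreceptor for bacterial lipopolysaccharide, fell from 1.26 to 0.657 TPM (log2 -0.93). Whether these cells had a part in the rise of interferon, MHC or complement genes was not tested, and in bulk RNA a change in the number of cells of a type and a change in RNA per cell cannot be told apart.

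Lists of mast cell, lymphocyte, erythroid and epithelial markers had no member with enough counts. Of 7 endothelial markers with enough counts 1 fell (Kdr, 28 to 12 counts) and none rose, beside 4.42% and 9.77% of all genes.

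Among chemokines and cytokines 7 of 20 with enough counts rose and 3 fell, beside 9.77% and 4.42% of all genes. Ccl11 (eotaxin) rose from 2.39 to 7.76 TPM (log2 1.68), Cxcl12, which holds blood progenitors in the marrow, from 51.8 to 97.8 TPM (log2 0.94) and Il33 from 4.52 to 10.2 TPM (log2 1.35). Cxcl10, a chemokine named for its induction by interferon, had 7.83, 9.28 and 8.05 TPM on day 4 and 16.1, 14.7 and 18.7 TPM on day 6 (log2 0.94, interval 0.69 to 1.2). Ppbp, the platelet basic protein, fell from 79.3 to 24.3 TPM (log2 -1.72), Cxcl14 from 33.1 to 17.4 TPM (log2 -0.92), and Il11 from 45 to 14 counts.

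Genes that stood higher still on day 2 were among the largest falls. Tnn (tenascin-W), a matrix protein of developing bone and periosteum on chromosome 1, 162015165 to 162083711, minus strand in NCBIM37, had 9.79, 10.5 and 9.85 TPM on day 4 and 1.28, 1.61 and 1.78 TPM on day 6, a fall of 6.34-fold (log2 -2.66, interval -2.87 to -2.47). On day 2 it was at 40.4 TPM, and from day 8 to day 18 it stayed between 1.29 and 2.15 TPM. Ptgs2 (cyclooxygenase-2) makes the precursor of prostaglandin E2. It lies on chromosome 1, 151947254 to 151955140, plus strand, had 242, 241 and 238 TPM on day 4 and 89.5, 88.6 and 94.2 TPM on day 6 and fell 2.67-fold (log2 -1.42). In both genes no day 6 profile reached a day 4 profile.

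Others of the 15 largest falls were Sfn, the cell cycle inhibitor 14-3-3 sigma, from 22.0 to 6.43 TPM, Ppbp as given above, Slc13a5, a citrate transporter of bone, from 23.6 to 7.98 TPM, Ankrd1 from 93.3 to 36.1 TPM, Coch from 30.03 to 12.2 TPM and Lrrc4c from 9.76 to 3.18 TPM. The counts of Slc13a5 are shared with other genes, and so are those of the remaining 6. Rpl28-ps1, Gm10705, Apoo-ps and Gm5776 are pseudogenes or carry a pseudogene's name, and the per-lane log2 ratios of Rpl28-ps1 spanned -7.80 to -1.34. Gm10705 had a log2 ratio of -1.98, which became -0.42 without the profiles of replicate 3. Gm5776 had a log2 ratio of -1.52 in counts and -0.26 in TPM. Gm20419 fell from 141 to 43.8 TPM. The symbol 2810453I06Rik belongs to a pair of identifiers that overlap on the same strand; ENSMUSG00000083012 fell from 685 to 232 counts while ENSMUSG00000048910 went from 0 to 454, so neither can be read alone. Among the rises, AF085738 overlaps Gnas on the opposite strand with shared counts, and its TPM in the profiles of day 4 were 0, 16.3 and 38.3.

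TGF-beta and the related activins are secreted ligands that signal through Smad proteins. In the list of BMP and TGF-beta response genes, 3 of 18 fell and 1 rose, beside 4.42% and 9.77% of all genes, with a median log2 ratio of -0.19. Among the falls were Smad7, the inhibitory Smad that the pathway induces, from 12.4 to 5.71 TPM (log2 -0.97), and Ctgf from 269 to 152 TPM (log2 -0.92). Tgfbi went the other way, from 30.02 to 53.4 TPM (log2 0.81). The BMP targets Id1, Id2 and Id3 had log2 ratios of 0.067, -0.064 and -0.012.

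Among the ligands and their secreted antagonists 4 of 26 with enough counts fell and 6 rose, where 4.42% and 9.77% of all genes did. Inhba, the subunit of activin A, had 791, 804 and 808 TPM on day 4 and 365, 375 and 379.7 TPM on day 6, a fall of 2.17-fold (log2 -1.11, interval -1.14 to -1.08). Inhbb, the subunit of activin B, fell from 55.9 to 27.7 TPM (log2 -1.03). Nog (noggin) was called lower on 24 and 14 counts, with an interval that crosses 0. The rises were of low level: Chrdl1, an antagonist of BMP4, went from 1.97 to 7.66 TPM (log2 1.80), Gdf10 from 1.94 to 4.37 TPM (log2 1.16), and Bmp3, Chrd, Bmp2 and Bmp7 rose by 1.98, 1.39, 0.74 and 0.68 on the log2 scale while below 2 TPM. The call of Bmp7 ended without the profiles of replicate 2, at 0.55, or of replicate 3, at 0.58. Tgfb1, Tgfb2 and Tgfb3 were not called, with log2 ratios of -0.32, -0.38 and -0.29.

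Targets of YAP and TEAD, which respond to tension and spreading of the cell, included several falls. Of 22 listed, 7 fell and 1 rose, against 4.42% of all genes tested that fell, and the median log2 ratio was -0.19. This list was added after the values had been seen. Ankrd1 had 93.9, 93.8 and 92.2 TPM on day 4 and 35.9, 35.4 and 37.0 TPM on day 6 (log2 -1.38, interval -1.47 to -1.30), and Crim1 fell from 47.5 to 23.8 TPM (log2 -1.01). Ctgf, F3 (tissue factor), Amotl2, Lats2 and Cyr61 fell by 0.92, 0.74, 0.74, 0.71 and 0.61 on the log2 scale, the last not past the call (-0.57) when libraries were scaled by total count without mitochondrial genes. The rise was Igfbp3, which binds insulin-like growth factors, from 3.77 to 13.5 TPM (log2 1.83, interval 1.62 to 2.05). The level of Igfbp3 went on to 50.5 TPM on day 8 and 113 TPM on day 12.

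Contractile genes of smooth muscle and myofibroblasts had log2 ratios below 0 in 15 of 20 cases, as did 47.8% of all genes, with a median of -0.31. Only 2 reached the call, where 4.42% of all genes fell. Myh11 fell from 14.9 to 9.47 TPM (log2 -0.66) and Cnn1 from 183 to 118 TPM (log2 -0.64). Acta2 (smooth muscle actin), had 3446 TPM on day 4 and 2532 TPM on day 6 (log2 -0.46), short of the call.

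Of 7 EGF family ligands with enough counts, a list added after values were seen, 2 fell, 2 rose and 3 were not called, where 4.42% of all genes fell and 9.77% rose. Hbegf, which fell, had 27.4, 26.9 and 27.1 TPM on day 4 and 13.4, 14.7 and 12.4 TPM on day 6 (log2 -1.02) and Ereg, which fell too, 23.8, 23.9 and 23.3 TPM on day 4 and 11.7, 12.3 and 12.9 TPM on day 6 (log2 -0.96), with the days apart in every profile. Egf and Tgfa were called higher on at most 49 counts. Of 25 immediate early genes with enough counts 3 fell and 1 rose, beside 4.42% and 9.77% of all genes, and 20 of the 25 log2 ratios were below 0, as were 47.8% of those of all genes. Dusp1, a phosphatase of MAP kinases, went from 73.5 to 38.8 TPM (log2 -0.91), Ier5 fell by 0.79 and Ier3 by 0.69 on the log2 scale, and Dusp6, the feedback phosphatase of ERK, rose by 0.64 on the same scale (0.51 without the profiles of replicate 3). Fos, Jun and Egr1, the classic members, were not called, with log2 ratios of 0.034, 0.069 and 0.027.

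Genes by which osteoblasts act on osteoclasts fell in part. Csf1, the growth factor of osteoclast precursors, had 543, 549.7 and 557 TPM on day 4 and 374, 369.8 and 379.9 TPM on day 6, a fall of 1.52-fold (log2 -0.61), close to the 1.5-fold limit and not past it in TPM (log2 -0.55) or when scaled by total count without mitochondrial genes (log2 -0.57). Tnfrsf11b (osteoprotegerin), the decoy receptor of RANKL, fell from 30.3 to 16.4 TPM (log2 -0.89). Tnfsf11 (RANKL) itself was at 2.71 and 1.87 TPM, with a log2 ratio of -0.52 that was not called. The receptor for estrogen (Esr1, log2 0.98) rose from a low level, and the receptors for parathyroid hormone (Pth1r, log2 -0.42) and vitamin D (Vdr, log2 -0.27) were not called.

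**Figure D3:**
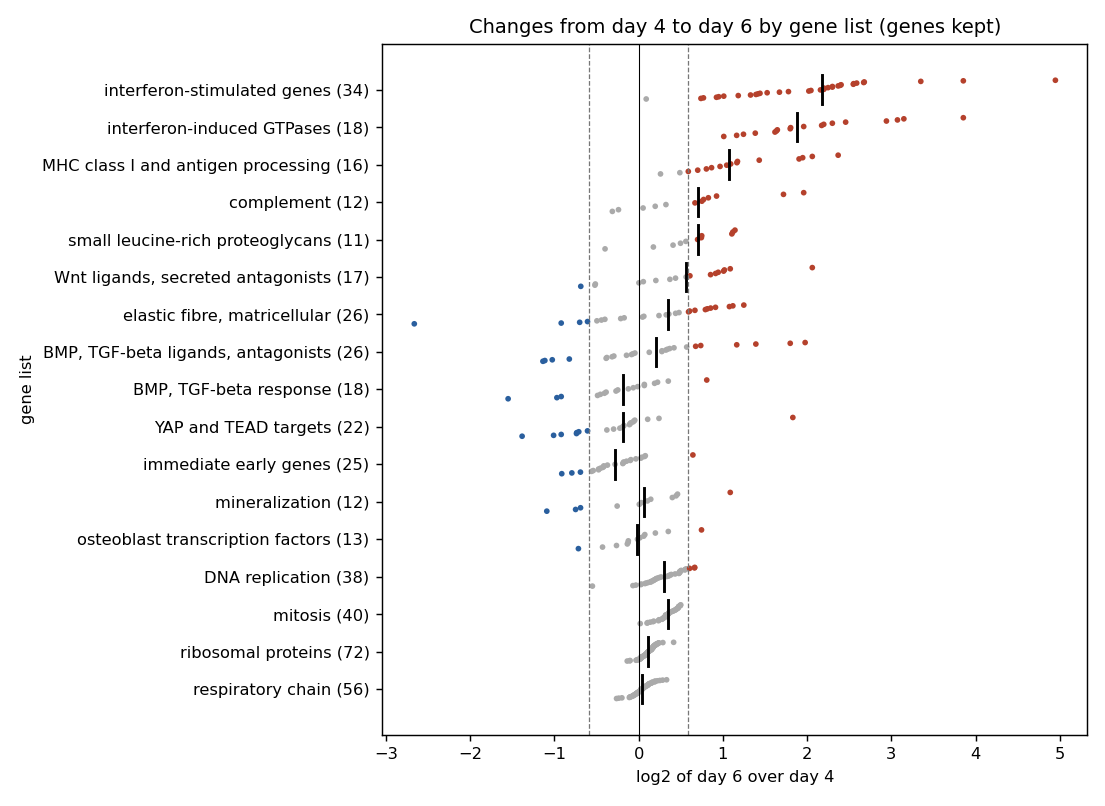
Log2 ratio of day 6 to day 4 for the genes with enough counts in 17 lists, with the number of genes in parentheses; each point is a gene, red and blue points are at least 1.5-fold higher or lower (dashed lines), and the black bar is the list's median. The medians run from -0.28 for immediate early genes to 2.18 for interferon-stimulated genes, while ribosomal proteins and the respiratory chain lie between the dashed lines throughout.

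The main collagens were not among the calls. Col1a1, Col1a2 and Col3a1 had log2 ratios of 0.09, 0.30 and 0.35 and none was called. Of 11 fibrillar collagens 2 were called higher, both under 3 TPM, where 9.77% of all genes were. Col11a2 had a log2 ratio of 1.11 in counts and of 0.077 in TPM, and Col27a1 of 0.61, which became 0.55 without the profiles of replicate 3. Of 24 genes of collagen processing and crosslinking, Adamts2, which removes the amino propeptide, rose from 8.35 to 16.7 TPM (log2 1.04), and Pcolce2, an enhancer of carboxyl propeptide removal, fell from 9.16 to 4.67 TPM (log2 -1.38). Lox, the crosslinking oxidase, went from 931 to 647 TPM (log2 -0.57), just short of the call.

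Small leucine-rich proteoglycans, which coat collagen fibrils and bind growth factors, rose in 6 of 11 genes with enough counts and fell in none. The share of all genes that rose was 9.77%, and the median log2 ratio of the list was 0.70. Dcn (decorin) had 132, 132 and 137 TPM on day 4 and 299, 297 and 300.3 TPM on day 6 (log2 1.14, interval 1.10 to 1.19), and Lum (lumican) had 139, 142 and 141 TPM on day 4 and 311, 311 and 306 TPM on day 6 (log2 1.12, interval 1.08 to 1.16). Podn rose from 9.83 to 21.4 TPM (log2 1.11), and Ogn, Omd and Aspn, which lie side by side on chromosome 13, rose by 0.75, 0.74 and 0.70 on the log2 scale. Bgn (biglycan), the most abundant of the list, was at 2124 and 2425 TPM (log2 0.17). The levels of the risers went on upward, Dcn to 1467 TPM on day 10 and 2652 TPM on day 18.

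Of 26 elastic fibre and matricellular genes 10 rose and 4 fell, against 9.77% and 4.42% of all genes. Postn (periostin), a protein of the periosteum, had 143, 141 and 146 TPM on day 4 and 354, 348 and 340.2 TPM on day 6 (log2 1.25, interval 1.22 to 1.28). Of the microfibril proteins Mfap2 rose from 22.1 to 52.1 TPM (log2 1.08) and Mfap4 from 191 to 363 TPM (log2 0.91). Within the CCN family Nov (Ccn3) rose from 12.7 to 27.9 TPM (log2 1.12) while Ctgf and Cyr61 fell. Thbs4 rose by 0.85 on the log2 scale, whereas Thbs1, at 2039 TPM on day 4, had a log2 ratio of -0.44. The other fall, Tnxb, rested on 22 and 14 counts with an interval that crosses 0. Of the proteases, the collagenase Mmp13 had 43.3, 41.6 and 42.2 TPM on day 4 and 101, 104 and 104 TPM on day 6 (log2 1.27, interval 1.2 to 1.33), and the stromelysin Mmp3 rose from 25 to 94 counts (log2 1.82).

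Among Wnt ligands and secreted Wnt antagonists 8 of 17 with enough counts rose and 1 fell, against 9.77% and 4.42% of all genes. The median log2 ratio was 0.56. The antagonist Sfrp1 had 50.5, 53.4 and 53.2 TPM on day 4 and 106, 107 and 106 TPM on day 6 (log2 1.01). Its relative Sfrp2 had 22.4, 25.7 and 25.5 TPM on day 4 and 49.5, 50.7 and 47.8 TPM on day 6 (log2 1.02). Sostdc1, which binds both Wnt coreceptors and BMPs, had 2.87, 2.15 and 3.73 TPM on day 4 and 12.3, 12.0 and 12.8 TPM on day 6 (log2 2.06, interval 1.78 to 2.36), and no other day had a higher mean. The agonists Rspo3 and Rspo2 (R-spondins) rose by 0.94 and 0.85 on the log2 scale. Of the ligands, Wnt10b and Wnt16 were called higher on at most 36 counts, Wnt2b fell from 2.65 to 1.67 TPM, and Wnt5a, the most abundant ligand, had a log2 ratio of 0.055.

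The feedback target Axin2, a common readout of the canonical Wnt pathway, had 251 and 253 counts (log2 -0.056, interval -0.31 to 0.20). Lgr5, a receptor for R-spondins, rose from 1.84 to 5.58 TPM (log2 1.58, interval 1.35 to 1.83) and its relative Lgr6 had 66 and 29 counts (log2 -1.24) but a log2 ratio of -0.32 in TPM. Wif1 and Tnfrsf19 had log2 ratios of -0.64 and -0.65 at levels under 2 TPM, which became -0.062 and -0.55 without the profiles of replicate 2. In all, 1 of 14 canonical targets with enough counts rose and 3, whose calls were these uncertain ones, fell, beside 9.77% and 4.42% of all genes.

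Imprinted growth genes are expressed from the allele of a single parent and are high in fetal tissue. They included 6 rises and 1 fall among 17 with enough counts, where 9.77% of all genes rose and 4.42% fell. Mest had 58.0, 54.4 and 57.2 TPM on day 4 and 186, 186 and 188 TPM on day 6 (log2 1.74, interval 1.69 to 1.79). Cdkn1c, an inhibitor of cyclin-dependent kinases, rose from 11.8 to 26.2 TPM (log2 1.14), and the long RNA H19 from 514 to 895 TPM (log2 0.81). Its neighbour Igf2 was not called (log2 -0.11). Zim1 and Peg3, neighbours on chromosome 7, rose by 0.79 and 0.61 on the log2 scale, Dcn is also in the list, and Peg10 fell from 20.0 to 12.5 TPM (log2 -0.77). Mest, Cdkn1c and H19 stood at 519.6, 267 and 1583 TPM on day 12.

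Of 13 osteoblast transcription factors with enough counts 1 rose and 1 fell, beside 9.77% and 4.42% of all genes, so the list as a whole did not stand out. Sp7 (osterix), which acts after Runx2, had 4.81, 4.84 and 5.88 TPM on day 4 and 3.42, 3.39 and 3.69 TPM on day 6, a fall of 1.64-fold (log2 -0.72, interval -0.97 to -0.46) that in TPM was short of the call (log2 -0.55), after 32.3 TPM on day 2. Runx2 had a log2 ratio of 0.073, Msx2 of -0.12, Atf4 of 0.06 and Dlx5 of 0.35. Dlx6 was called higher on 18 and 32 counts, with an interval that crosses 0.

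Of 12 genes of mineralization with enough counts 3 fell and 1 rose, beside 4.42% and 9.77% of all genes. Phospho1, a phosphatase of matrix vesicles, went from 134 to 65.5 counts (log2 -1.09, interval -1.54 to -0.65). Alpl, the tissue-nonspecific alkaline phosphatase, had 48 and 31 counts, and its log2 ratio of -0.69 became -0.33 without the profiles of replicate 3. It had been at 9.13 TPM on day 2 and was at 11.7 TPM by day 10. Slc20a1, a phosphate transporter, had 120, 117 and 114 TPM on day 4 and 64.2, 70.6 and 66.4 TPM on day 6 (log2 -0.75, interval -0.80 to -0.70). Mgp, the matrix Gla protein that inhibits calcification, rose from 868 to 1862 TPM (log2 1.09, interval 1.05 to 1.12). The channel protein Panx3, like Alpl, was lower on day 6 than on any other day, with 12.3, 1.53, 0.513 and 8.33 TPM on days 2, 4, 6 and 10.

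Proliferation genes had ratios above 0, almost all short of the call. Of 38 replication genes 35 had a log2 ratio above 0, where 52.1% of all genes did, with a median of 0.30, and 3 rose, a share no higher than the 9.77% of all genes. Rfc3 and Rfc4, subunits of the clamp loader, rose by 0.66 and 0.66 on the log2 scale, and Tk1 by 0.60, which was 0.53 in TPM. All 40 mitotic genes had a log2 ratio above 0, with a median of 0.35 and a highest of 0.50 (Ttk), and none was called. Mki67, the gene of the proliferation antigen Ki-67, had 41.0, 41.6 and 41.7 TPM on day 4 and 57.3, 57.3 and 57.5 TPM on day 6 (log2 0.46). Cdkn1a (p21), an inhibitor of the cell cycle at 2330 TPM on day 4, was at 1989 TPM on day 6 (log2 -0.28), and Mdm2, the ubiquitin ligase of p53, fell from 303 to 184 TPM (log2 -0.76). In the step before, from day 2 to day 4, the median log2 ratio was -0.16 for the replication genes and -0.24 for the mitotic genes. The summed level of the mitotic genes was 1360, 1197 and 1510 TPM on days 2, 4 and 6. In the following steps the median log2 ratio of the mitotic genes was -0.071 from day 6 to day 8 and -0.96 from day 8 to day 10.

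Housekeeping programs did not move at the 1.5-fold level, where 9.77% of all genes rose and 4.42% fell. No gene was called among 72 cytosolic ribosomal proteins, 56 nuclear-encoded subunits of the respiratory chain and 13 mitochondrially encoded messenger RNAs. The same held for 31 proteasome subunits, 26 endoplasmic reticulum folding genes and 14 genes of fatty acid synthesis. The 9 genes of the Notch signalling pathway held no call either, but over the alternatives up to 2 rose and up to 1 fell. Mitochondrial genes held 23.80% of the counts on day 4 and 23.44% on day 6. Among 31 genes of glycolysis and the hypoxia response 2 fell, Adm (adrenomedullin) from 43.9 to 24.2 TPM (log2 -0.87) and Egln3 from 85 to 30 counts (log2 -1.55), and none rose.

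**Figure D4:**
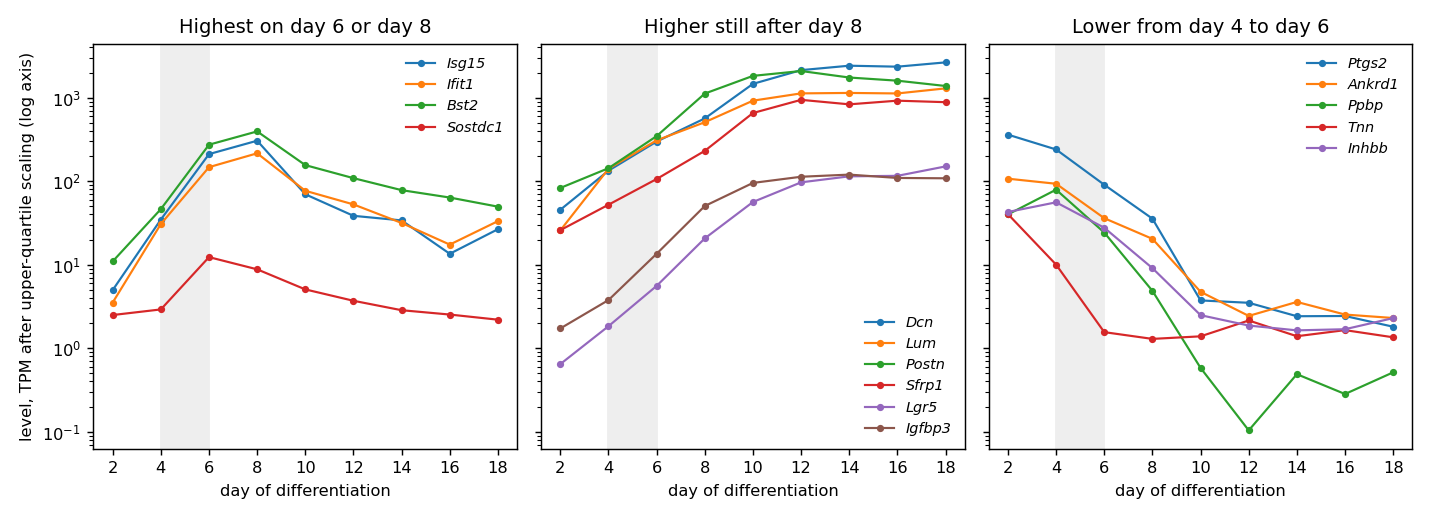
Mean level in TPM (log axis) on each of the 9 days from day 2 to day 18 for 4 genes highest on day 6 or day 8, 6 genes that were higher still after day 8 and 5 genes that were lower on day 6 than on day 4; the grey band marks the step from day 4 to day 6 and each point is the mean of a day's 3 profiles. Isg15 was highest on day 8 at 306 TPM, Lgr5 reached 150.5 TPM on day 18, and Ptgs2 fell to 3.74 TPM by day 10.

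The changes of the step differed in their course over the other days. Inhbb and Ppbp were higher on day 4 than on day 2 (42.8 and 55.9 TPM for Inhbb, 40.1 and 79.3 TPM for Ppbp) and stood at 2.49 and 0.582 TPM on day 10. Sostdc1 was at 2.50 and 2.92 TPM on days 2 and 4, stood highest on day 6 and was back at 5.07 TPM on day 10. Ptgs2 and Ankrd1 were lower in each step from day 2 to day 10, so their fall was not particular to this step. The neighbouring steps had 1723 genes higher and 718 lower from day 2 to day 4 and 1408 higher and 859 lower from day 6 to day 8 by the same rule, over 13825 and 13994 genes.

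Some of the genes named overlap another gene, and strand-specific counting is not stated in the sources used here. C1ra, Cfb, Col27a1, Crim1, Egf, Gm4951, H19, Ifi203, Ifi27l2a, Ifnar2, Igf2, Irf9, Itgbl1, Jak1, Lats2, Lrrc4c, Mest, Pcolce2, Phospho1, Psmb9, Runx2, Serpinb2, Tm7sf2 and Trex1 overlap a gene on the same strand, some of them also one on the opposite strand. AF085738, Acta1, Adamts2, Aspn, Axin2, B2m, Cd34, Chrd, Ciart, Col1a1, Col9a3, Csf1r, Ctgf, Cxcl10, Dhx58, Dlx6, Dpp4, Egr1, Esr1, Gnas, Ifnk, Irf1, Irf3, Irf7, Jun, Lgr5, Mfap4, Ogn, Omd, Prg4, Psmb10, Psmb8, Rfc4, Rpl28-ps1, Sfrp2, Slc13a5, Slc20a1, Tgfb2, Tgtp2, Tk1, Tnxb, Tril, Trim30a, Tyk2 and Wnt5a overlap genes on the opposite strand. Their values may hold reads of the overlapping gene.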

How the data were processed

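RNA from sorted calvarial cells was amplified, sequenced and quantified by the authors with RSEM 1.2.8 and Bowtie 0.12.9, the versions in the submitters' processing notes. The methods of the study name another RSEM release. The authors deposited, per gene and profile, the estimated count and the TPM, on build NCBIM37. The deposited estimated counts were summed over the 3 profiles of a day, after their counts were checked to differ by no more than sampling noise (chi-square per degree of freedom 1.013 on day 4 and 1.010 on day 6). Sums were scaled by the 75th percentile over genes with at least 30 counts, and 0.5 counts were added. Deposited TPM were scaled by the 75th percentile of values above 0. Day totals were 42301717 and 43146793 counts. With 1 library per day no test between days was possible, and intervals cover counting error only. Amplification before sequencing means that reads are not independent molecules. Python 3.11.15, scipy 1.17.1 and, for the alternative of TMM factors, edgeR 4.0.16 were used. The calculation was tested on simulated data.

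Genes named were the 15 largest rises and falls at 10 TPM or more, the 8 largest below 10 TPM with at least 200 counts on a day, and up to 5 members of each list in each direction with its defining members, and some of these are not reported here. The members and the 39 gene lists and 12 marker lists were chosen with earlier results of these data known, and 6 lists were added later (interferon ligands, receptors, sensors and GTPases, YAP and TEAD targets, EGF family ligands). Promoters came from RefSeq in build GRCm38.p6, which is not the build of the files, and were matched by symbol.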

Additional observations from a re-analysis of the deposited data

How the results depend on the processing

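The numbers of calls depended on the count minimum and the fold and little on the scaling. Against 1376 genes higher and 623 lower, a minimum of 1 count gave 3943 and 2943, a minimum of 300 counts with its own scaling gave 520 and 168, and a 2-fold limit gave 617 and 215. The share of calls that were higher went from 68.83% to 57.26% with the minimum of 1 count. Leaving out the profiles of each replicate in turn gave 1207 to 1252 higher and 530 to 548 lower. The other scalings, TPM, 5 added counts and genes with whole-number counts stayed within 1.5 times of both counts. Of 249 calls among the genes named here or listed, 246 remained with TMM factors, 234 in TPM, and 226 of the 234 that kept enough counts without the profiles of replicate 2. Of 11457 recomputed values 10861 stayed within their error (the counting interval of a gene, or the SD between lanes of a list's median), 594 moved further, and 2 were calls that reversed. Sign changes of uncalled ratios and list medians are not counted as reversals. List medians were less stable than single genes by this measure: 159 of 582 medians moved further, against 429 of 10851 gene changes. The ratio of Gvin1 was -0.57 without the profiles of replicate 2 and at most 2.71 (without replicate 1), and that of Tlr7 was -0.049 in TPM. Their causes were not tested. Depth limits genes under 300 counts, where the median counting interval spanned 1.26 on the log2 scale. No paired analysis was possible because each day is 1 library whose replicate numbers mark sequencing lanes.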

Other observations

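Other gene groups held a few calls each. Among 12 cartilage markers with enough counts 4 rose and 1 fell, beside 9.77% and 4.42% of all genes. Ucma, a Gla protein of the growth plate, had 1.08, 1.78 and 2.23 TPM on day 4 and 8.77, 7.54 and 9.67 TPM on day 6 (log2 2.47, interval 1.83 to 3.22), Col9a3 went from 5.68 to 11.6 TPM (log2 1.03), and Matn3 and Lect1 rose by 1.54 and 1.89 on the log2 scale from at most 25 counts. The master regulator Sox9 (log2 0.21) and Col2a1 (log2 -0.25) were not called, and Prg4, the lubricin of joint surfaces, fell from 24.8 to 14.1 TPM (log2 -0.95).

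Of 19 surface markers of stromal progenitors 3 rose and 2 fell, beside 9.77% and 4.42% of all genes. Ly6a (Sca-1) went from 850.4 to 1327 TPM (log2 0.63) and Cd34 from 8.17 to 15.3 TPM (log2 0.89). Ly6c1 rose by 0.81 on the log2 scale. Lepr, the leptin receptor, had 36.5, 37.0 and 34.5 TPM on day 4 and 20.3, 21.8 and 21.0 TPM on day 6, a fall of 1.82-fold (log2 -0.86), and Dpp4 went from 32 to 11 counts. Of the adhesion genes Itgbl1 rose from 25.3 to 50.1 TPM (log2 1.01), and Gjb2 (connexin 26) fell from 6.13 to 2.64 TPM (log2 -1.23), which together with Panx3 made 1 rise and 2 falls among 17.

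Spry1, Dusp6 and Etv5, feedback and target genes of FGF and ERK signalling, rose by 0.72, 0.64 and 0.60 on the log2 scale. With Igfbp3 they were the 4 rises among 24 genes of IGF and FGF signalling, where 9.77% of all genes rose. Gas1, a coreceptor for hedgehog ligands, rose from 22.0 to 38.2 TPM (log2 0.78) and was the single call among 8 hedgehog genes. Tm7sf2 and Dhcr7 rose by 1.16 and 0.63 and were the calls among 23 genes of cholesterol synthesis. Of 18 clock genes Bhlhe41, Hlf and Ciart were called higher, all below 3 TPM. The lists of the ATF4 response, Nrf2 targets and lysosomal genes held 2, 1 and 1 calls among 36, 19 and 32 genes, all below 5 TPM.

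Among markers of other cell types, 1 of 6 for osteoclasts fell (Oscar) and 2 of 7 for adipocytes fell (Dgat2 and Car3). For skeletal muscle 2 of 3 fell while 1 rose, of which Acta1 (13.8 to 8.47 TPM) was the one above 10 TPM. Markers of Schwann cells and neurons (3) and of tendon and suture fibroblasts (5) held no call. Over all genes 4.42% fell and 9.77% rose, and with so few markers in a list these counts say little.

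At levels below 10 TPM the largest falls were those of Rasgrp3, an activator of Ras, from 873 to 245 counts (log2 -1.90), Serpinb2, a serpin, from 233 to 78 (log2 -1.64), Pcolce2, Siglecg, the endocytic receptor Lrp2 (log2 -1.33), Apold1, A330021E22Rik and Fgd3. The largest rises were one identifier of 2810453I06Rik, Oas2, Gm4070, F830016B08Rik, Tril, a coreceptor of Toll-like receptors (log2 2.64), AW011738, Oas1a (log2 2.40) and Sp110 (log2 2.39). Next to the 1.5-fold limit lay E2f8 (0.5850) and Slitrk5 (0.5847) on the upper side and Arid5b (-0.5872) and Tnk2 (-0.5839) on the lower, on the log2 scale.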
